A study of Homo sapiens with 3 samples.

Results

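PPARG and 4 coregulators of nuclear receptors, NCOA1, NCOR1, CREBBP and EP300, were followed across 2 deposited tables of exon-skipping events. The rows with these 5 gene symbols were taken from both tables, out of 11271 gene identifiers in all. They comprised 28 events in 25 exons among 40702 events in the RS2 table, and 30 events in 26 exons among 42518 events in the RS3 table. Of the 28 distinct exons, 23 were listed in both tables, 2 in the RS2 table alone and 3 in the RS3 table alone. The genes were chosen by symbol with their RS2 and RS3 differences in inclusion already known, so every difference is a description of these libraries and none is an independent finding.

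The libraries came from BJ cells, an established line of human foreskin fibroblasts, on day 8 of viral OSKM expression, the factor set of OCT4, SOX2, KLF4 and MYC that reprograms somatic cells. Of the 3 samples, 1 had received siRNA against SMAD3, 1 siRNA against SFRS11 and 1 a non-targeting siRNA, and all 3 expressed OSKM. SMAD3 is a transcription factor of the TGF-beta pathway. SFRS11, now named SRSF11, belongs to the SR-related splicing factors. Each group had 1 library and no replicate. The tables compare the libraries coded RS2 and RS3 with 1 shared library, and none of these codes is tied to a siRNA by a label. Differences are therefore named by code, and no direction is attached to a knockdown. Each value is the authors' difference in inclusion level, the share of transcripts over a region that keep the exon. A positive difference means higher inclusion than in the shared library. An event was called at a listed FDR under 0.05 and an absolute difference of at least 0.1. The FDR compares 2 libraries, and the read depth behind each value is unknown.

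PPARG is the ligand-activated nuclear receptor that drives fat cell differentiation, and it binds DNA together with a retinoid X receptor. Without ligand, nuclear receptors are held by corepressors such as NCOR1, which bring in the histone deacetylase HDAC3. With ligand they bind p160 coactivators such as NCOA1, also called SRC-1, which recruit the acetyltransferases CREBBP (CBP) and EP300 (p300). Fibroblasts are mesenchymal cells, and forced expression of Pparg turns cultured mouse fibroblasts into fat cells. Of 11 fibroblast markers, 10 had listed exons in each table, against 1 of 7 fat cell markers, CD36. Of 6 epithelial markers, 4 had listed exons in RS3 and 3 in RS2, and of 6 pluripotency markers, 1 in RS3 and 0 in RS2. A gene can be listed only if it has an exon that can be skipped, so no cell identity is read from these counts. Listing shows only that an exon was measured, not how much of the gene's RNA was present. For the same reason the tables do not check the knockdowns. SMAD3 had 3 events in each table, and SRSF11 had 8 in RS2 and 3 in RS3. Of these, 0 were called, where 0.0712% of all RS2 events and 0.967% of all RS3 events were called. SMAD3 events ranged from -0.001 to 0.013 in RS2 and from -0.009 to 0.008 in RS3. SRSF11 events ranged from -0.281 to 0.043 in RS2 and from -0.143 to -0.003 in RS3.

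The exons of the 5 genes were placed in the GENCODE 29 annotation. The tables use hg19 and the annotation another build, so exons were matched on length and on their distances from each other within the gene. With 1 shift per gene, 28 of 28 listed exons coincided with an annotated exon. The next best shift placed at most 1 exon of a gene.

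The CREBBP exon with the largest difference is exon 11 of 31 in CREBBP-201, and EP300 has an exon at the same place. Both transcripts have 31 exons. All 29 inner exons of CREBBP-201 have the same length as the EP300-201 exon of that number or differ from it by a multiple of 3, and 17 have the same length. The sequences are shown so that the 2 related exons can be compared and so that it can be seen what joins when the CREBBP exon is skipped. They are from the annotated transcripts, in the 5′ to 3′ direction, with the exon in capitals and 30 bases of each neighbouring exon in lower case.
CREBBP with the exon: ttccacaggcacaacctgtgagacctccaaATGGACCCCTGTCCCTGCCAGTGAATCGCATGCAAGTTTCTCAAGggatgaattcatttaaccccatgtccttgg
CREBBP without the exon: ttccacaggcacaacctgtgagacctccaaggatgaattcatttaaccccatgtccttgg
EP300 with the exon: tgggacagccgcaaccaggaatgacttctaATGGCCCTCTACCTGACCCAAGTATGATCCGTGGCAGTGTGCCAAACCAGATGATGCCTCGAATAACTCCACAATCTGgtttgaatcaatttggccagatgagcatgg

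The NCOA1 exon is where the annotated C-termini of the protein part. In NCOA1-201 the exon adds 14 codons and then a stop codon, which closes a reading frame of 1399 codons. In NCOA1-205, where its neighbours are joined directly, the frame runs on to 1441 codons. These lengths are those of the isoforms known as SRC-1e and SRC-1a. The first sequence gives the end of the preceding exon in lower case and the coding part of the exon with its stop codon in capitals. The second gives the direct join, with 30 bases on each side.
NCOA1 with the exon: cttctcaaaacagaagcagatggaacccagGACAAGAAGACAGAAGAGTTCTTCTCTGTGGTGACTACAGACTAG
NCOA1 without the exon: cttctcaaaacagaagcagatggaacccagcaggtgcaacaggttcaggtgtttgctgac

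**Figure D1:**
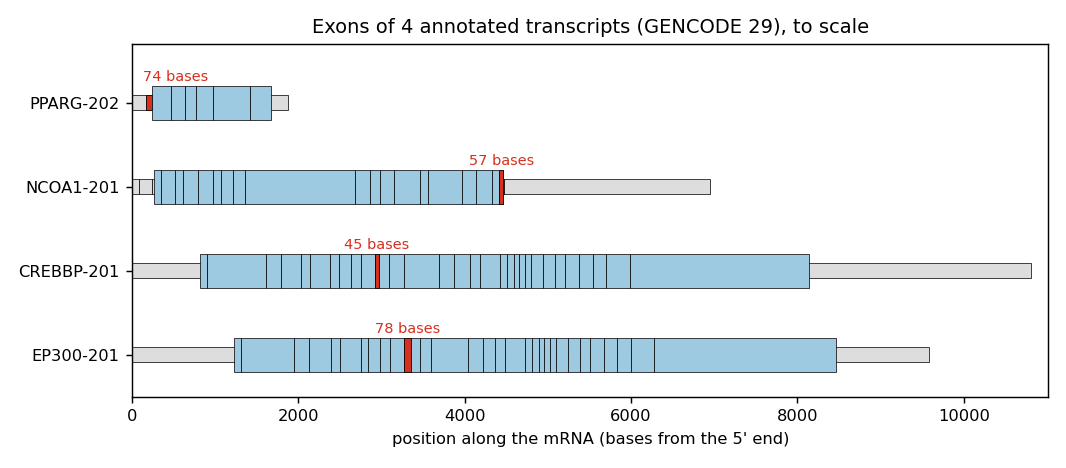
Exons of 4 annotated transcripts along the mRNA in bases from the 5′ end, drawn to scale, with the reading frame as tall blue boxes and untranslated parts as low grey boxes. Red marks the exons of 74, 57, 45 and 78 bases. The PPARG exon lies before the reading frame, the NCOA1 exon at its end, and the CREBBP and EP300 exons are both number 11 of 31.

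Among the 5 genes, 3 events were called in the RS3 table, 1 each in PPARG, CREBBP and NCOA1, all with lower inclusion. Of all RS3 events, 0.967% were called, 0.736% with lower inclusion, and 3.05% of genes had a called event. In the RS2 table, the 5 genes had 0 called events, where 0.0712% of all events and 0.238% of genes were called. With an unadjusted p under 0.05 and the same minimum difference, the same 3 RS3 events passed, beside 3.98% of all RS3 events. In RS2, 2 events passed on those terms, in PPARG and NCOA1, beside 2.21% of all RS2 events. Because these differences led to the choice of the genes, the counts are not read against the shares of all events.

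Most events of the 5 genes were close to the shared library. In the authors' deposited tables, 23 of 28 RS2 events and 21 of 30 RS3 events of the 5 genes differed from the shared library by less than 0.05. Their median difference was 0.0055 in RS2 and -0.013 in RS3, where the medians of all events were 0 and -0.001 in the authors' deposited tables. In RS3, 20 of the 30 events were negative and 10 positive, and in RS2 10 were negative, 16 positive and 2 at 0. Both tables use the same second library, so their values are set side by side and no correlation between them is given.

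**Figure D2:**
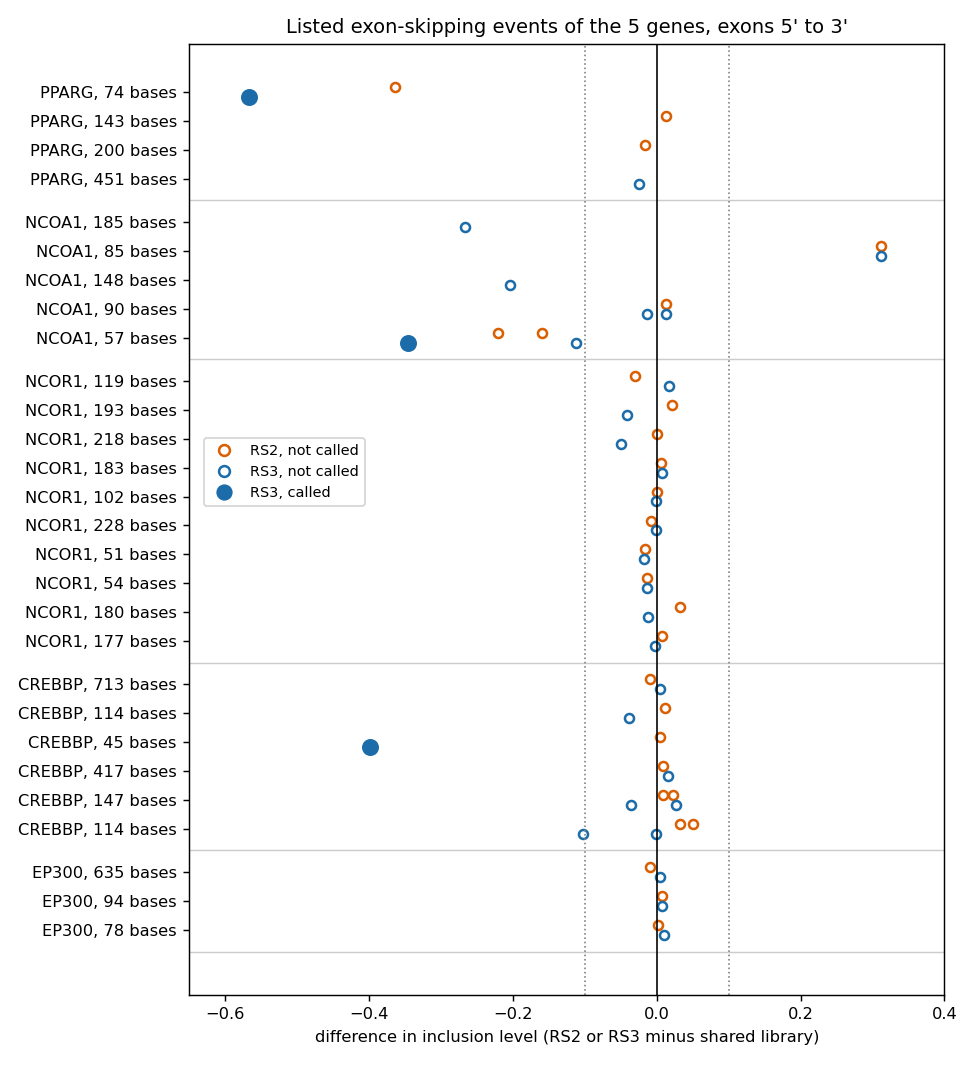
Difference in inclusion level, RS2 (orange) or RS3 (blue) minus the shared library, for every listed event of the 5 genes, with exons in 5′ to 3′ order and named by length. Filled points are called events, dotted lines mark differences of 0.1, and an exon with several points has several rows. The 3 filled points lie at -0.567 (PPARG), -0.346 (NCOA1) and -0.399 (CREBBP), while NCOR1 and EP300 stay within 0.05 of 0.

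The receptor gene itself had the largest difference of the 5. PPARG (ENSG00000132170, chromosome 3, plus strand) had a 74-base exon from 12353879 to 12353952 whose inclusion fell by 0.567 in RS3 in the authors' deposited table, with a p of 6.72e-06 and an FDR of 0.00103. In RS2 the difference of this exon in the authors' deposited table was -0.364, with a p of 0.00747 and an FDR of 0.658. Inclusion was thus below the shared library in both, and only the RS3 event was called. In a bulk culture, a shift in the mix of cells and a shift in splicing within cells cannot be told apart. Whether RS3 and RS2 differ from each other was not tested.

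The PPARG exon is annotated as untranslated. It is present in 9 transcripts, 8 of them protein-coding, and lies ahead of the reading frame in all 8. In PPARG-202, which encodes the 477-codon receptor known as PPARG1, it is exon 2. The 505-codon transcript PPARG-201, which encodes PPARG2, the form of fat tissue, lacks it. None of the annotated PPARG transcripts, PPARG-201 included, joins directly the exons that neighbour it. The difference of this exon is therefore not a measure of PPARG2 against PPARG1. Keeping or skipping it changes the annotated leader of the mRNA and not the annotated reading frame.

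The other listed exons of PPARG were close to the shared library. A 200-base coding exon from 12447381 to 12447580 differed by -0.017 and a 143-base exon from 12440847 to 12440989 by 0.013 in RS2, per the authors' deposited table. The 143-base exon is annotated only in 1 transcript, which is marked for nonsense-mediated decay. A 451-base coding exon from 12458203 to 12458653 differed by -0.025 in RS3 in the authors' deposited table. These 3 exons had an FDR of 1 and were each listed in 1 table alone.

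Among the coactivators, NCOA1 had the most differences of at least 0.1. NCOA1 (ENSG00000084676, chromosome 2, plus strand) is a p160 protein that bridges the ligand-bound receptor and acetyltransferases. Its 57-base exon from 24990948 to 24991004, the one that carries the SRC-1e stop codon, was listed in 2 rows per table. In RS3 the rows in the authors' deposited table were -0.346 (p of 2.54e-07, FDR of 6.1e-05), which was called, and -0.112 (FDR of 1), which was not. In RS2 they were -0.221 (p of 0.000664, FDR of 0.184) and -0.159 (FDR of 1) in the authors' deposited table. All 4 rows were negative, so inclusion of the exon that ends SRC-1e was listed lower than in the shared library. The 4 rows are of 1 exon and are set against the same shared library, so they are not separate observations. The flanking exons are not given, so RS3 rows cannot be paired with RS2 rows.

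The other NCOA1 exons with differences of at least 0.1 had an FDR of 1. The 85-base exon from 24807345 to 24807429 lies ahead of the reading frame, and its difference in the authors' deposited tables was 0.312 in RS3 and 0.312 in RS2, with p-values of 0.753 and 0.606. Of 3690 exons that differed by at least 0.1 in both tables, 477 (12.9%) had equal differences to 3 decimals, and 0 of these 477 were called in either table. A 185-base exon ahead of the reading frame, from 24777258 to 24777442, differed by -0.267 in RS3 in the authors' deposited table, with a p of 0.575. A 148-base coding exon, from 24927955 to 24928102, differed by -0.204 in RS3 in the authors' deposited table, with a p of 0.386. Both were listed in RS3 alone. Of all RS3 events with a difference of at least 0.1, 4.57% had an FDR under 0.05, and of such RS2 events 0.37%. For a difference of at least 0.2 the shares were 3.94% in RS3 and 0.248% in RS2. For at least 0.3 they were 2.79% in RS3 and 0.141% in RS2.

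The remaining NCOA1 exon, of 90 bases from 24985556 to 24985645, codes for protein next to the 57-base exon and precedes it. It differed by -0.014 and 0.013 in its 2 RS3 rows and by 0.013 in RS2, per the authors' deposited tables.

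The acetyltransferases, which are close relatives, had unlike values at related exons. CREBBP (ENSG00000005339, chromosome 16, minus strand) had a 45-base exon from 3827614 to 3827658 whose inclusion fell by 0.399 in RS3 in the authors' deposited table, where p and FDR are listed as 0. The authors' deposited table for RS2 gave 0.005 for the same exon, with a p of 0.874. RS2 was thus level with the shared library while RS3 was far below it, and the RS3 to RS2 difference was not tested. The exon lies over codons 705 to 720 of CREBBP-201, in the stretch between the KIX domain, which binds transcription activators, and the bromodomain, which binds acetylated lysine. Its length is 15 codons, so the reading frame is kept when it is skipped. Its neighbours are joined in 1 annotated transcript, CREBBP-206. That transcript is short, with 5 exons and 253 codons against 31 exons and 2442 codons in CREBBP-201.

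The related EP300 exon was level with the shared library in both tables. EP300 (ENSG00000100393, chromosome 22, plus strand) had a 78-base exon 11 from 41542743 to 41542820, over codons 685 to 711, which differed by 0.01 in RS3 and by 0.001 in RS2, per the authors' deposited tables. Its p-values in the authors' deposited tables were 0.633 in RS3 and 0.978 in RS2. The neighbours of this exon, too, are joined in 1 short annotated transcript, EP300-204, of 3 exons and 133 codons. A 94-base exon of EP300 differed by 0.007 in RS3 and 0.007 in RS2, and a 635-base exon by 0.005 in RS3 and -0.009 in RS2, in the authors' deposited tables. CREBBP and EP300 are different genes, and the difference between their exons was not tested.

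The other 5 exons of CREBBP were near the shared library in most rows. A 114-base exon from 3788560 to 3788673 lies over codons 1427 to 1465, within the acetyltransferase domain. Its rows in the authors' deposited tables were -0.103 and -0.001 in RS3, and 0.05 and 0.032 in RS2, and none had an FDR under 1. Another 114-base exon, from 3841982 to 3842095, is present in CREBBP-201 and absent from CREBBP-202, an annotated isoform. It differed by -0.039 in RS3 and by 0.011 in RS2, per the authors' deposited tables. The 147-base exon had rows of -0.036 and 0.026 in RS3 and of 0.008 and 0.022 in RS2, per the authors' deposited tables. The exons of 417 and 713 bases stayed between -0.01 and 0.015 in both in the authors' deposited tables.

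The corepressor NCOR1 (ENSG00000141027, chromosome 17, minus strand), which links unliganded receptors to HDAC3, had the most listed exons of the 5 genes, and all were close to the shared library. Its 10 exons, 10 events per table, ranged from -0.05 to 0.017 in RS3 and from -0.031 to 0.032 in RS2, per the authors' deposited tables. The smallest p in the authors' deposited tables was 0.318 in RS3 and 0.256 in RS2. Several were versions of 1 exon that share an end. The 54-base form differed by -0.014 in RS3 and -0.013 in RS2, and the 51-base form by -0.018 in RS3 and -0.017 in RS2, in the authors' deposited tables. A 218-base form whose only annotated transcript is marked for nonsense-mediated decay had the lowest RS3 value in the authors' deposited table, -0.05, and was listed at 0 in RS2. A 119-base exon ahead of the reading frame differed by 0.017 in RS3 and -0.031 in RS2, per the authors' deposited tables. No NCOR1 exon reached a difference of 0.1 in either table.

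By size, the 3 called exons stood in the upper part of the RS3 losses. The genes were chosen with these differences known, so the ranks are a description only. Of 313 called events with lower inclusion in RS3, PPARG ranked 11, CREBBP 28 and NCOA1 45 from the largest loss, and the median of these events in the authors' deposited table was -0.196. They are of 3 kinds by their place in the mRNA, an untranslated leader exon, an inner coding exon that keeps the frame, and an alternative last coding exon. They are 74, 45 and 57 bases long, below the median of 120 bases over all RS3 events, called or not.

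**Figure D3:**
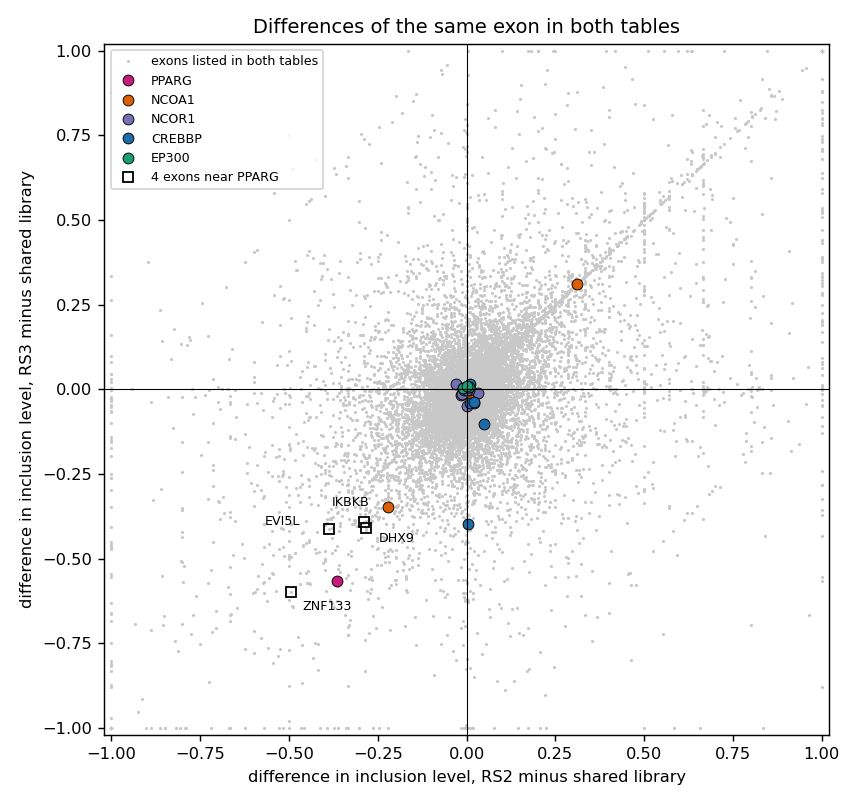
Difference of each of 29288 exons listed in both tables, RS2 minus the shared library across and RS3 minus the shared library upwards, with the 5 genes in colour and 4 exons near the PPARG exon as open squares. PPARG (-0.364 in RS2, -0.567 in RS3) and the 57-base NCOA1 exon lie below 0 on both axes, the 45-base CREBBP exon lies below 0 in RS3 only, and the grey diagonal holds exons with equal differences.

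The exons most like that of PPARG over the 2 comparisons were ranked by the distance between pairs of differences, among exons of 320 other genes called in RS3 and listed in both tables. The nearest was a 78-base exon of ZNF133, at -0.598 in RS3 and -0.493 in RS2, per the authors' deposited tables, a distance of 0.133. It was listed in 3 rows per table, of which 1 stood at 0.292 in RS3 and 1 at 0.292 in RS2, per the authors' deposited tables. Also among the 5 nearest were EVI5L (-0.411 in RS3 and -0.386 in RS2), DHX9 (-0.408 and -0.282) and IKBKB (-0.392 and -0.289) in the authors' deposited tables, at distances of 0.158 to 0.19. None of the 4 was called in RS2. The likeness rests on 2 values per exon from 2 libraries set against the same shared one.

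Genes around these 5 were read from 6 lists of other nuclear receptors, coactivators, corepressors, Mediator subunits, fat cell regulators with PPARG targets, and partners of CREBBP and EP300. Of 18 other nuclear receptors in RS3 and 17 in RS2, 0 had a called event, and the median difference of their events was -0.004 in RS3 and 0.003 in RS2. Likewise 0 of 29 fat cell genes in RS3 and 0 of 30 in RS2 had a called event, with medians of 0.001 in RS3 and -0.002 in RS2. Over all events the medians were -0.001 in RS3 and 0 in RS2, and 3.05% of all genes in RS3 and 0.238% in RS2 had a called event.

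Among the corepressors, HDAC3, the deacetylase that NCOR1 binds, had a 143-base exon that fell by 0.109 in RS3 (FDR of 0.0034), with a second row at 0.014, in the authors' deposited table. The authors' deposited table for RS2 gave 0.023 and -0.004 for that exon, and neither row was called. Of all genes, 3.05% in RS3 and 0.238% in RS2 had a called event.

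The coactivator, Mediator and partner lists had 1 or 2 called genes each in RS3 and 0 in RS2, where 3.05% of all genes in RS3 and 0.238% in RS2 had a called event. The lists were chosen with earlier results of these data known, so no result about a list is drawn from these counts. Of 27 coactivators, PRMT2, an arginine methyltransferase, had the called event. Inclusion of its 109-base exon rose by 0.151 in RS3 (FDR of 1.61e-10) and differed by 0.062 in RS2, per the authors' deposited tables. Of 26 Mediator subunits, MED4 had a 159-base exon whose inclusion rose by 0.161 in RS3 and differed by 0.082 in RS2, per the authors' deposited tables. Inclusion of a 120-base MED15 exon fell by 0.173 in 1 of its 3 RS3 rows in the authors' deposited table. The other rows of that exon stood at 0.024 and 0.007, and its RS2 rows were 0.026, -0.016 and 0.008. Of 36 partners of CREBBP and EP300, CREM, a factor of the cAMP response, had a called 124-base exon. Its inclusion fell by 0.335 in RS3 (FDR of 0.0285) in the authors' deposited table. The rows of this CREM exon had both signs, from -0.335 to 0.112 in RS3 and from -0.123 to 0.118 in RS2, per the authors' deposited tables. BRD1, a scaffold of acetyltransferase complexes, had a 311-base exon whose inclusion rose by 0.131 in RS3 and differed by 0.028 in RS2, per the authors' deposited tables.

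**Figure D4:**
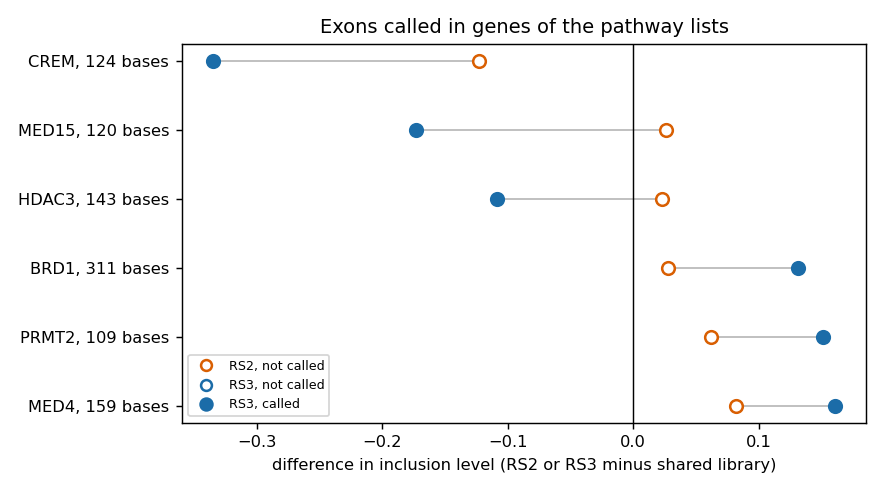
Difference in inclusion level, RS2 (orange) or RS3 (blue) minus the shared library, for 6 exons called in genes of the 6 lists, named by length. Filled points are called and all are RS3 values, 3 below 0, with CREM the lowest at -0.335, and 3 above 0, with MED4 the highest at 0.161.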

How the data were processed

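mRNA of 3 BJ samples was sequenced, and skipped exons are listed in 2 tables that the authors deposited. Per the file headers, each event has a p-value with its FDR, and an inclusion level difference, a score from -1 to 1 that the authors computed. The submitters' processing notes name STAR, FastQC and hg19; the calling program is not stated there. The difference is the first level column minus the second, and the second is the shared library, as a single look at the level columns outside the analysis showed. The 4 columns of levels per library were otherwise not used, since no label ties them to a sample.

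An event was called at FDR under 0.05 and an absolute difference of at least 0.1, with no test of its own, as each group has 1 library. Where 1 value stands for an exon of several rows, it is the called row with the smallest p-value, else the row with the smallest p-value. Several rows were listed for 5354 exons in RS2 and 5724 in RS3. Named were all exons of the 5 genes with an FDR under 0.05 or a difference of at least 0.1, each list gene called, and the 5 exons nearest to PPARG. Results for some of the genes this rule picks are not reported here, and the list counts under other thresholds leave such genes out; none was left out of a list whose count of called genes at the main threshold is given. Other exons of the 5 genes were named after their values were seen. Members and lists were chosen with earlier results of these data known. List genes were matched by Ensembl identifier; 10373 of 10526 identifiers in RS2 and 10575 of 10723 in RS3 were in the name table. Coordinates are hg19, counted from 1; GENCODE 29 gave transcript structure and sequence only. The calling step was tested on simulated data in which changed events were set far apart from the rest. That checks the code and not how reliable the calls are in these libraries. Python 3.11.15 and pandas 2.3.3 were used. Alternatives were other thresholds and other rows of an exon.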

Additional observations from a re-analysis of the deposited data

Results flagged for a closer look

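Among the exons of the 5 genes with an FDR under 0.05 or a difference of at least 0.1 in either table, 2 CREBBP exons had all their rows on opposite sides of the shared library in RS3 and RS2; the difference was not tested for either. The 45-base exon differed by -0.399 in RS3 and by 0.005 in RS2 in the authors' deposited tables, so its RS2 value was near 0. The 114-base exon from 3788560 had rows of -0.103 and -0.001 in RS3, against 0.05 and 0.032 in RS2, in the authors' deposited tables, and none of these rows was called.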

How the results depend on the processing

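The 3 called RS3 events of the 5 genes, 1 each in PPARG, CREBBP and NCOA1, numbered 3 under all 5 alternative call rules. The rule without a minimum difference and the rule with an unadjusted p are looser, so neither could lower that count. A Benjamini-Hochberg adjustment of the listed p-values moved 0 events of the 5 genes across the FDR threshold. It called the same 0.967% of RS3 events as the main rule, so it repeats that rule. The genes were chosen with these values known, so the steady count is a description only. In RS2, 2 events in 2 genes passed at an unadjusted p under 0.05 with a difference of at least 0.1, and 0 under the other 4. That unadjusted rule called 3.98% of all events and 17 of the reported list genes in RS3, and 2.21% and 11 in RS2. An FDR under 0.01 with a difference of at least 0.2 called 0.289% and 0 of the reported list genes in RS3, and 0.0172% and 0 in RS2. An FDR under 0.05 with a difference of at least 0.2 called 0.445% and 1 of the reported list genes in RS3, and 0.027% and 0 in RS2. Without a minimum difference, 1.64% of RS3 and 0.165% of RS2 events were called. Fewer or more events pass by the construction of these rules. Of 12 exon values, 8 came from exons listed in 1 row, so no other row could be chosen for them. The values of exons with several rows all moved when the median or the smallest row was taken. The 57-base NCOA1 exon was -0.229 as the median and -0.112 as the smallest row in RS3, and -0.19 and -0.159 in RS2. The 114-base CREBBP exon from 3788560 was -0.052 and -0.001 in RS3, and 0.041 and 0.032 in RS2. No paired analysis was possible because each group has 1 library. The depth is unknown, so no interval can be given, and without a replicate no difference can be assigned to a siRNA.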
